A study of Mus musculus with 6 samples.

Results

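The cytosolic ribosomal protein genes encode the proteins of the cytoplasmic ribosome. They were taken here by symbol, as every gene named Rpl or Rps with a number and at most the ending a, x, l or l1, the P stalk genes Rplp0, Rplp1 and Rplp2, and Rpsa. This rule found 83 of 17854 genes. Of these, 76 encode the standard proteins (46 of the large and 30 of the small subunit), and 7 are paralogs, that is, additional genes for a variant of a standard protein (Rpl3l, Rpl6l, Rpl7l1, Rpl22l1, Rpl32l, Rpl39l and Rps27l), which were kept apart. All 76 standard genes and 5 of the 7 paralogs passed the expression filter. Some ribosomal genes carry other names and lie outside the rule (among them Fau, Rack1, Rps3a1 and Rpl36al), and they are described separately.

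The RNA came from mice in which Prrx1-Cre, active in limb mesenchyme, had switched on the red reporter R26tdTomato, so that a cell and all its descendants stay labelled. Mesenchymal stem cells (MSCs) of the Prrx1 lineage, sorted as Tomato+ cells from inguinal white adipose tissue, were injected into knees of C57BL/6 males with osteoarthritis after transection of the anterior cruciate ligament. Tomato+ cells recovered from the repaired cartilage of these mice make up the MSC-derived group (3 libraries, treatment labelled Inject Prrx), and Tomato+ cells from the articular cartilage of age- and sex-matched Prrx1-Cre; R26tdTomato mice, for which the sources used here mention no surgery or injection, make up the endogenous group (3 libraries). The 3 libraries of a group came from different mice. The groups thus differ in the origin of the cells, in the joint disease and in the host, and these cannot be told apart. Surgery was done in young adult mice, whereas age at harvest and the time from injection to harvest are not given for these libraries in the sources used here.

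A ribosome joins ribosomal RNAs with the proteins encoded by these genes, nearly always a single copy of each protein per ribosome, so the genes are usually expressed together and at high levels in every cell. Their mRNAs belong to the TOP mRNAs, which begin with a run of pyrimidines at the start of transcription and whose translation is controlled by the kinase mTOR through the RNA-binding protein LARP1. Ribosome assembly begins in the nucleolus with RNA polymerase I, and the transcription factor MYC drives many of its genes. Free RPL5 and RPL11 bind MDM2 and thereby stabilise p53 when assembly fails. Erythroid precursors are known to be sensitive to the loss of a single ribosomal protein, as in Diamond-Blackfan anaemia, and cartilage cells make large amounts of secreted matrix protein.

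Each library held 22060628 to 24881796 expected counts (estimated reads per gene), and 3 counts, taken as the smallest level that can be seen, corresponded to 0.121 to 0.136 CPM (counts per 1000000 counts of the library). This floor covers counting error only. Levels below are given as CPM, scaled between libraries with edgeR's TMM factors, or as TPM, which divides by transcript length and sums to 1000000 in every library, and levels of different genes are compared only in TPM. Per-library values are given in the order of replicates 1, 2 and 3, for the MSC-derived libraries first and then, after "against", for the endogenous ones. Endogenous library 1 stood apart from the other endogenous libraries. It had 3449 genes at 0 counts against 1323 and 1375, and its counts differed from theirs by a chi-square of 53.3 and 56.6 per gene, against 5.30 between endogenous libraries 2 and 3 and 3.84 to 4.24 among the MSC-derived libraries. The labels call all 6 samples chondrocytes. All 19 chondrocyte markers were detected in every library but were lower in the MSC-derived cells, where their summed level was 6973 to 7206 CPM against 78602 to 81611 CPM. All 10 general leukocyte markers, 12 macrophage, 12 neutrophil and 12 erythroid markers were higher, with summed levels of 7381 to 7457, 13058 to 13284, 45075 to 47134 and 25483 to 25749.7 CPM against 385 to 471, 120.4 to 185, 2217 to 3128 and 4074 to 6082 CPM, and none of these 46 genes was at 0 in any library. By the edgeR test described below, 6 of 8 B cell and 6 of 8 T and NK cell markers were called higher. So were 4 of 6 endothelial and 0 of 10 osteoblast markers, with 10 osteoblast markers lower. Of the 4 adipocyte markers tested, 2 were higher and 2 lower. Over all 14289 genes tested, 31.3% were called higher and 30.3% lower. With limma on TPM, 3 endothelial markers were higher, and 2 adipocyte markers were higher and 1 lower. The B cell, T and NK cell and osteoblast counts were unchanged there. That test called 21.9% of all genes higher and 41.7% lower. These marker differences lie between the same groups as every comparison below, and their part in the ribosomal results was not tested. In bulk RNA, fewer cells of a type and less RNA per cell cannot be told apart.

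The 76 standard genes took a larger share of the counts in the MSC-derived cells, but not of the TPM. They held 3.07, 3.13 and 3.12% of all counts in the 3 MSC-derived libraries and 2.04, 2.50 and 2.56% in the 3 endogenous ones, and these values do not overlap. Of the summed TPM they held 7.04, 7.22 and 7.21% and 6.71, 7.76 and 7.92%, and here the MSC-derived libraries lay inside the endogenous range. Both shares are parts of a fixed total, so that what a few abundant transcripts hold is not open to the others. S100a8 alone, a short neutrophil and macrophage transcript, held 9.14, 9.66 and 10.1% of the TPM in the MSC-derived libraries and 0.415, 0.499 and 0.640% in the endogenous ones. Of the counts, the 50 other genes with the most counts held 21.1, 21.0 and 21.1% against 29.2, 30.2 and 29.8%. Without these 50 genes the ribosomal share of counts was 3.88, 3.96 and 3.95% against 2.89, 3.59 and 3.65%, which do not overlap. The ribosomal share of TPM without them was 10.7, 11.0 and 11.1% against 9.18, 10.9 and 11.1%, so that the MSC-derived libraries were level with endogenous libraries 2 and 3 or just beside them. Ribosomal protein mRNA was thus higher in the MSC-derived cells per count and not per TPM.

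**Figure D1:**
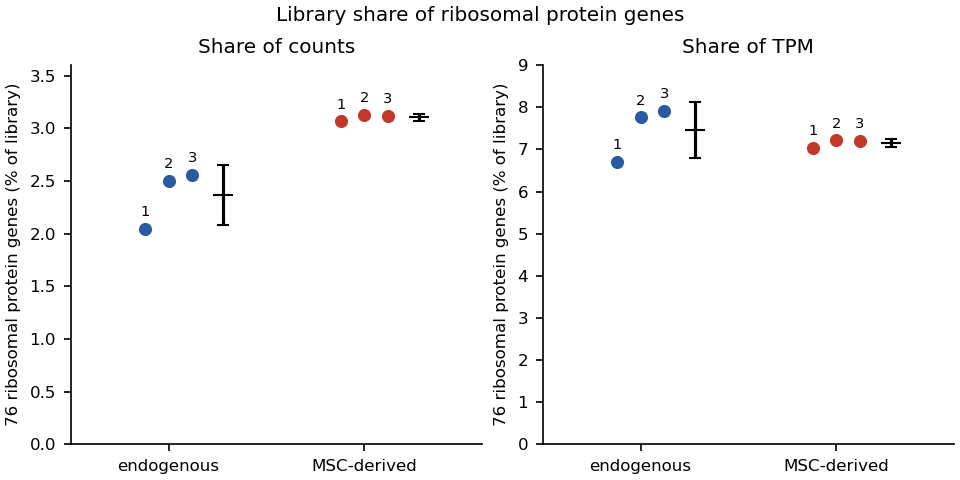
Share of each library held by the 76 standard ribosomal protein genes, as a percentage of all expected counts (left) and of summed TPM (right), with 1 point per library numbered by replicate and the mean with its SD (n = 3) beside them. By counts the MSC-derived libraries (3.07 to 3.13%) lie above all endogenous ones (2.04 to 2.56%), whereas by TPM they (7.04 to 7.22%) lie within the endogenous range (6.71 to 7.92%).

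Tested gene by gene on counts, most of the group leaned upward by a small amount, and on the TPM scale the median lay near 0. With edgeR, 44 of the 76 genes were called higher in the MSC-derived cells and 1 lower at an adjusted p up to 0.05, beside 31.3% called higher and 30.3% called lower among all 14289 genes tested. With limma on log2(TPM + 1), 8 were called higher and 23 lower, beside 21.9% and 41.7% of all genes. Both tests called 8 genes higher and 1 lower, beside 21.2% and 30.0% of all genes. The median log2 fold change of the 76 genes was 0.38 by edgeR, where that of all genes was 0.05, and -0.03 on the TPM scale, where that of all genes was -0.28. The distance between these medians, 0.33 and 0.25, thus had the same sign on both scales, and over the other scalings, filters and left-out libraries tried it lay between 0.21 and 0.42. Against genes of similar transcript length the sign of this distance by edgeR depended on the length. Members of up to 1000 bases had lower medians than all genes of that length, members included (0.51 against 0.75 up to 500 bases, and 0.26 against 0.53 from 500 to 1000 bases). Members over 1000 bases had a higher median (0.16 against 0.03). This class includes Rps15a and Rps20, whose long effective lengths are those given by the reference gene set, and the part of that annotation was not tested. The counts of the 3 MSC-derived and the 3 endogenous libraries did not overlap for 59 of the 76 genes (58 higher, 1 lower), beside 72.4% of all genes tested. Changes were small: 49 of the 76 genes lay within 0.5 of 0 on the log2 scale and 1 gene beyond 1, while the standard deviation of the fold changes was 0.26 for the 76 genes and 2.12 for all genes. Without endogenous library 1, edgeR called 52 of the 76 higher and 6 lower, with a median of 0.21 where that of all genes was 0.00. Over all genes that fit called 5563 of 14728 higher and 5686 lower. Leaving out MSC-derived library 2, MSC-derived library 3 or endogenous library 2 left 26, 27 and 29 of the 76 called higher. Over all genes these fits called 3722 of 14744, 3672 of 14748 and 3981 of 14490 higher, beside 4468 of 14289 with all libraries.

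**Figure D2:**
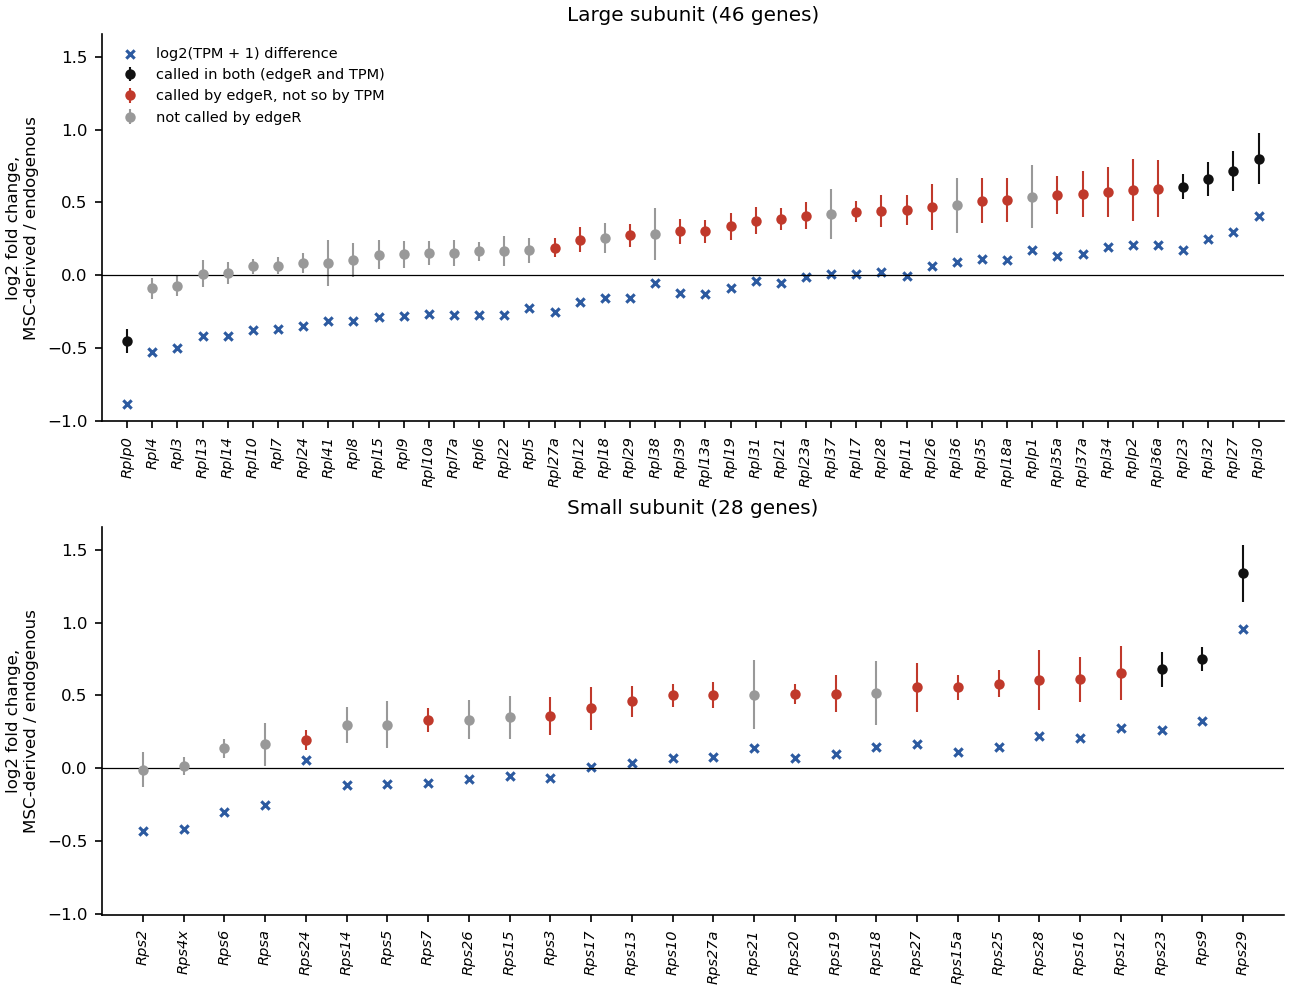
Log2 fold change of MSC-derived over endogenous cells for the 46 large subunit genes (top) and 28 of the small subunit genes (bottom), ordered by size, as circles from edgeR with their standard errors and as crosses for the difference of mean log2(TPM + 1). Rps29 lies highest at 1.34 and Rplp0 lowest at -0.45, the 7 drawn genes higher and the 1 lower in both tests are black, and every cross lies below its circle, with 35 of the 74 crosses above 0 against 70 of the circles.

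The 8 genes that rose on both scales were led by Rps29, a small zinc-binding protein of the head of the small subunit. Rps29 stood at 147, 164 and 176 CPM against 44.6, 74.8 and 73.1 CPM (log2 fold change 1.34, standard error 0.20, adjusted p = 0.000752), with a difference of 0.95 on the TPM scale (adjusted p = 0.00193). Every MSC-derived library was above every endogenous one, and the fold was the only one above 1 on the log2 scale among the 76. Rps9, which binds ribosomal RNA early in assembly and lies near the entry of the mRNA channel, had 777, 781 and 799 CPM against 414, 489.9 and 495 CPM (log2 fold change 0.75, standard error 0.08, adjusted p = 0.000146), and its difference was 0.32 on the TPM scale (adjusted p = 0.00183). Rps23, a protein of the decoding centre, had 651, 675 and 704 CPM against 342, 461 and 464 CPM (log2 fold change 0.68, standard error 0.12, adjusted p = 0.00206), with a difference of 0.26 on the TPM scale (adjusted p = 0.0355). For these 3 small subunit genes the groups did not overlap, and endogenous library 1 was the lowest of the 6.

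On the large subunit, Rpl30 and Rpl27 rose most. Rpl30 had 202, 222 and 219 CPM against 88.5, 141 and 140.3 CPM (log2 fold change 0.80, standard error 0.18, adjusted p = 0.00546). Rpl27 had 175, 187 and 182 CPM against 87.2, 115 and 129 CPM (log2 fold change 0.72, standard error 0.14, adjusted p = 0.00318). Both proteins occur in eukaryotic but not in bacterial ribosomes. Their differences on the TPM scale were 0.40 and 0.30 (adjusted p = 0.0382 and 0.0374). Rpl32 and Rpl23, singled out here after their values were seen, are also among the 8, with log2 fold changes of 0.66 and 0.61 by edgeR and 0.24 and 0.17 on the TPM scale. The same 8 genes were called higher under every one of the 10 scalings tried (edgeR with different factors or none, DESeq2, and limma on TPM and FPKM). Without endogenous library 1 the edgeR log2 fold changes of the members named here remained between 0.48 and 1.08.

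**Figure D3:**
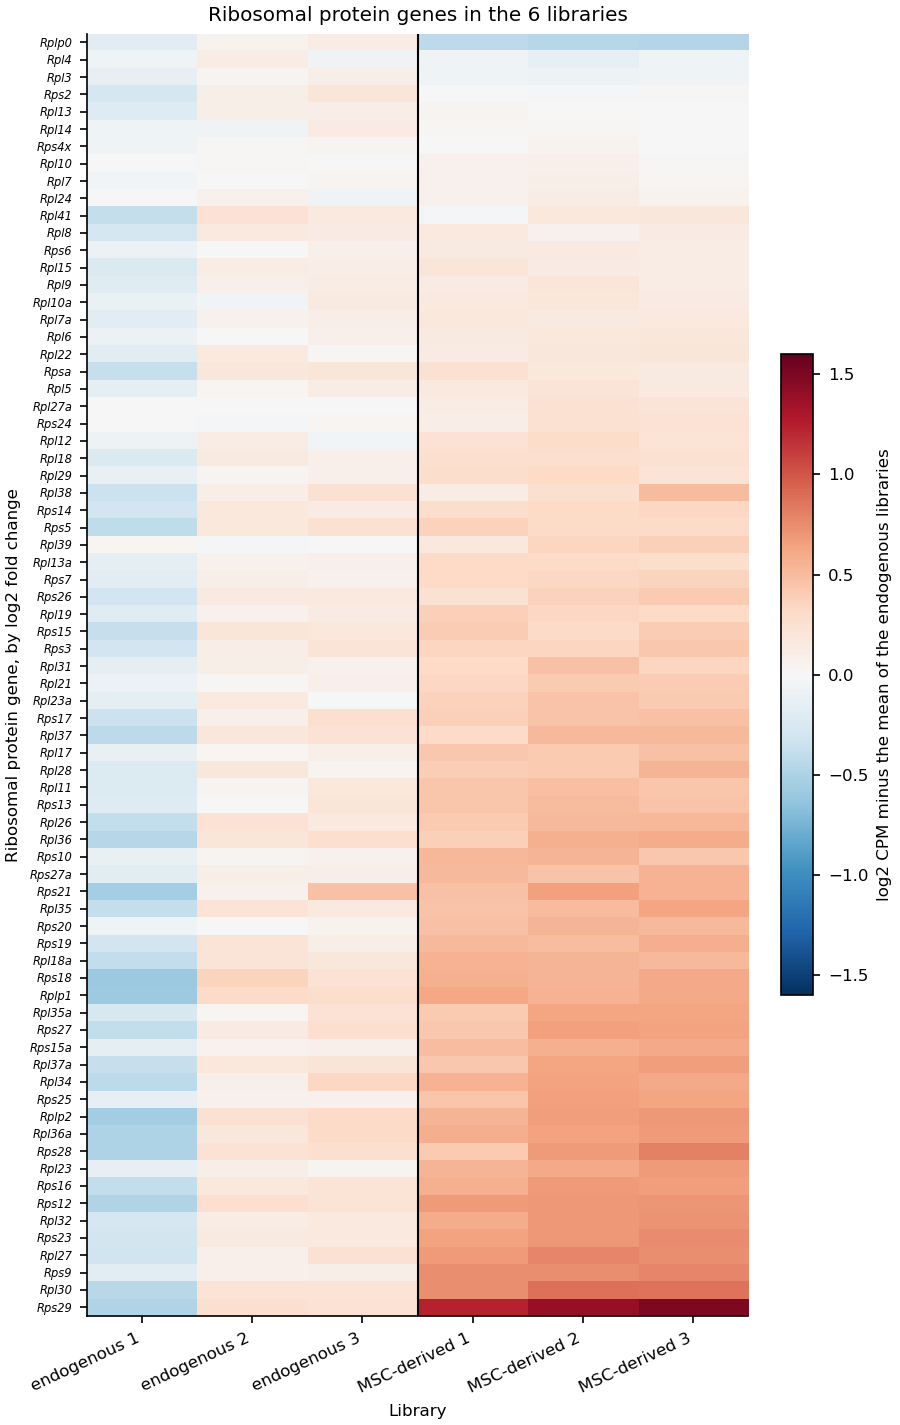
Scaled CPM of 74 of the 76 genes (rows, ordered by log2 fold change) in each of the 6 libraries (columns), as log2 difference from the mean of the 3 endogenous libraries, red above and blue below it. Endogenous library 1 is the bluest column for most rows, being the lowest of the 6 libraries for 68 of the 74 genes drawn, and the red of the MSC-derived libraries deepens down to Rps29, whereas Rplp0 at the top is blue in all 3 of them. The reds hold for scaled counts, and in TPM 35 of the 74 genes lie above the endogenous mean.

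The P stalk, the flexible arm of the large subunit that recruits elongation factors, went in different directions. RPLP0 is its base and carries the paired RPLP1 and RPLP2. Rplp0 was the only standard gene called lower by edgeR: it had 1138, 1111 and 1104 CPM against 1347, 1586 and 1651 CPM (log2 fold change -0.45, standard error 0.08, adjusted p = 0.00246), the groups did not overlap, and it was also lower under all 10 scalings, with -0.89 on the TPM scale (adjusted p = 1.21e-05). Rplp1 had 253, 243 and 251 CPM against 110.3, 204 and 200.0 CPM, and its log2 fold change of 0.54 did not pass the test (adjusted p = 0.0637). Rplp2 had 160.3, 175 and 179 CPM against 75.2, 131 and 137 CPM, and its log2 fold change of 0.58 passed by edgeR (adjusted p = 0.0455) and not on the TPM scale, where it was 0.21. For both of these genes endogenous library 1 lay far under the other endogenous libraries, and without it the log2 fold changes were 0.25 and 0.30, with Rplp0 at -0.59. Within a library, the ratio of Rps29 to Rplp0 in TPM does not depend on how libraries are scaled. It was 0.747, 0.835 and 0.908 in the MSC-derived libraries and 0.181, 0.269 and 0.253 in the endogenous ones, a log2 difference of 1.84 between genes that were chosen as the extremes of the group. No test is given for this ratio for that reason. The edgeR call of Rplp2 rested on all libraries but endogenous 1 and 3, since leaving out any other gave adjusted p of 0.0791 to 0.12, whereas Rplp1 passed without endogenous library 1 (adjusted p = 5.82e-05).

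After Rplp0, the lowest fold changes belonged to Rpl4, Rpl3, Rps2, Rpl13 and Rpl14, abundant proteins of which RPL3 and RPL4 are among the early binders of the large subunit. Their edgeR log2 fold changes were -0.09, -0.07, -0.01, 0.01 and 0.01, none past the test (adjusted p of 0.302, 0.411, 0.939, 0.936 and 0.888). On the TPM scale the same genes were called lower, with differences of -0.53, -0.50, -0.43, -0.42 and -0.42. Rpl3 shows the pattern. It had 719, 711 and 728 CPM against 689, 778 and 803 CPM, which overlap, whereas its 785, 776 and 783 TPM against 1102, 1089 and 1133 TPM do not. Of the 31 standard genes that edgeR did not call, 18 were called lower on the TPM scale and 13 were called by neither test. A further 4 genes, among them Rpl12, Rpl27a and Rpl29 (named after their values were seen), were called higher by edgeR and lower on the TPM scale. Over the 10 scalings 14 of the 76 genes were called in both directions, and 2, Rpsa and Rpl41, in none.

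The next members are given for roles beside or late in the life of the ribosome, and they lay on both sides of the edgeR threshold. RPL5 and RPL11 form a particle with the smallest ribosomal RNA and bind MDM2 when free. Rpl5 had 188, 194 and 187 CPM against 152, 172 and 182 CPM (log2 fold change 0.17, adjusted p = 0.12). Rpl11 had 311, 317 and 309.9 CPM against 197, 234 and 257 CPM (log2 fold change 0.45, adjusted p = 0.00657). Rpl11 did not overlap between the groups in CPM, but its TPM difference was -0.01, and that of Rpl5 was -0.23 with an adjusted p of 0.0173. Rps6, the ribosomal substrate of the S6 kinases, had 751, 749.6 and 735 CPM against 632, 682 and 719 CPM (log2 fold change 0.14, adjusted p = 0.115), and its difference was -0.30 on the TPM scale (adjusted p = 0.00276). Rpsa, also known as the laminin receptor, had 461, 439 and 431 CPM against 301, 443 and 444 CPM, so that endogenous libraries 2 and 3 lay at the MSC-derived level and library 1 below it. Rpl38, whose loss in mice alters the patterning of the axial skeleton, had 39.3, 43.2 and 51.1 CPM against 28.4, 38.8 and 42.7 CPM, which overlap (log2 fold change 0.28, adjusted p = 0.204). Rpl10, which completes the large subunit in the cytoplasm, Rps4x, encoded on the X chromosome, and Rpl7 had edgeR log2 fold changes of 0.06, 0.02 and 0.06, none past the test, and TPM differences of -0.38, -0.42 and -0.37, all called lower. Rpl13a, known for silencing inflammatory mRNAs when released from the ribosome, was called higher by edgeR at 0.30 (adjusted p = 0.0125) and was -0.13 on the TPM scale. Rpl41, which encodes the shortest of these proteins, was at 0.08 by edgeR and -0.32 on the TPM scale, past neither test. The edgeR call of Rpl13a was lost without endogenous library 2 (adjusted p = 0.0539).

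Mutations in 24 of the 76 standard genes are known to cause Diamond-Blackfan anaemia, an inherited failure of red cell production. Disease genes outside the 76 were not counted here. Of these 24, 17 were called higher and 0 lower by edgeR (median 0.44), while on the TPM scale 2 were higher and 4 lower (median 0.03), beside 31.3% and 30.3% of all genes by edgeR and 21.9% and 41.7% on the TPM scale. Rps19, the gene most often mutated in this disease, had 719, 707 and 754 CPM against 408, 584 and 535 CPM (log2 fold change 0.51, standard error 0.13, adjusted p = 0.00995), and its TPM difference was 0.10. Of all 76 standard genes, 44 were called higher by edgeR. Erythroid markers moved in the same direction. Alas2, the first enzyme of haem synthesis in red cell precursors, stood at 289, 290.2 and 299.5 CPM against 49.0, 86.2 and 89.7 CPM, and the part of erythroid RNA in the ribosomal values was not tested. Without MSC-derived library 2 or 3, 11 of the 24 were called higher by edgeR, and without endogenous library 1 their median was 0.27. Over all genes, 3722 of 14744 and 3672 of 14748 were higher without MSC-derived library 2 and 3.

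By fold change the small subunit genes had the higher median on both scales, a difference that was not tested. By edgeR, 20 of 30 small subunit genes were called higher and 0 lower with a median log2 fold change of 0.50, against 24 of 46 higher and 1 lower with a median of 0.30 for the large subunit. On the TPM scale the small subunit had 4 higher and 4 lower with a median of 0.07, and the large subunit 4 higher and 19 lower with a median of -0.11. Over all genes 31.3% were higher and 30.3% lower by edgeR and 21.9% and 41.7% on the TPM scale. Without endogenous library 1 the edgeR medians came down to 0.26 for the small and 0.18 for the large subunit. The summed TPM of the large subunit genes divided by that of the small subunit genes, a ratio within a library, was 1.211, 1.217 and 1.2 in the MSC-derived libraries and 1.464, 1.377 and 1.365 in the endogenous ones. All 3 MSC-derived ratios lay under all endogenous ones, and endogenous library 1 was the farthest from them. Over the counts themselves, the large subunit genes held 1.80, 1.84 and 1.82% against 1.29, 1.55 and 1.58% and the small subunit genes 1.263, 1.29 and 1.299% against 0.753, 0.954 and 0.984%.

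Among replicates the group was very even, apart from endogenous library 1. The coefficient of variation of scaled CPM had a median of 3.06% over the 76 genes among the MSC-derived libraries, and 2.57% between endogenous libraries 2 and 3. With endogenous library 1 included it was 13.2%, while over all genes tested the medians were 7.57% (MSC-derived) and 19.8% (endogenous). Library 1 was below the mean of the other endogenous libraries for 74 of the 76 genes, by a median of -0.32 on the log2 scale. Calls changed with this library. Rps18, with 739.7, 722 and 757 CPM against 330.3, 635 and 585 CPM, had a log2 fold change of 0.52 that did not pass (adjusted p = 0.0768), and without library 1 a smaller one of 0.22 that did (adjusted p = 0.000111). Without it 6 standard genes were called lower instead of 1, namely Rplp0 and Rpl3, Rpl4, Rps2, Rpl13 and Rpl41, the last 5 at -0.19, -0.18, -0.20, -0.14 and -0.14. Calls over all genes grew as well. Without library 1, 5563 of 14728 genes were higher and 5686 lower, against 4468 and 4333 of 14289 with it.

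Fold change went with transcript length. Effective lengths, as implied by the deposited counts and FPKM, ran from 152 to 4951 bases over the 76 genes with a median of 544. Over the 76 genes the edgeR log2 fold change and the log2 effective length had a Pearson correlation of -0.42 (Spearman -0.49), a description across genes that share the same 6 libraries. The 36 genes of up to 500 bases had a median log2 fold change of 0.51 with 25 called higher, the 26 genes of 500 to 1000 bases 0.26 with 14 higher, and the 14 longer genes 0.16 with 5 higher and 1 lower. Over all genes tested, of any length, 31.3% were called higher and 30.3% lower, and calls over all genes of each length class are not given here. On the TPM scale the medians of these 3 classes were 0.12, -0.15 and -0.26. The trend was also seen over the tested genes as a whole, members included. Lengths were compared over the 12306 tested genes with an FPKM of at least 1 in at least 3 libraries, which 1 group alone could meet. Of these, the 342 shortest had a median of 0.75, the 1023 of middle length 0.53 and the 10941 longer ones 0.03. The members thus lay below these genes in the 2 shorter classes and above them in the longest. Rps15a and Rps20, to which the reference gene set gives effective lengths of 4951 and 3261 bases, did not follow the trend. The part of that annotation in their place among the longer genes, and in the median of that class, was not tested. The log2 fold change of Rps15a was 0.56 (adjusted p = 0.000904) and that of Rps20 0.51 (adjusted p = 0.000409). Endogenous library 1 itself ran lower against the other endogenous libraries the shorter the gene (r = 0.52 over the 76 genes), and without that library the correlation of fold change and length was -0.32.

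**Figure D4:**
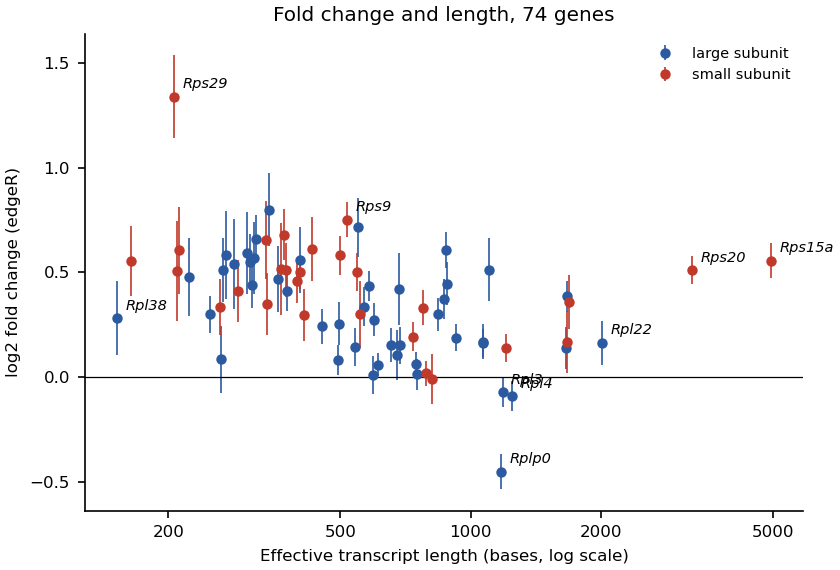
Log2 fold change from edgeR with its standard error against effective transcript length in bases on a log axis, for 74 genes of the large (blue) and small (red) subunit. Short genes spread upward to Rps29 at 1.34, the genes near 1200 bases include Rpl3, Rpl4 and the lowest, Rplp0 at -0.45, and the longest, Rps20 and Rps15a, lie again near 0.5.

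In TPM, the levels of the standard genes differed far more between genes than between groups. Mean TPM over the MSC-derived libraries ran from 48.7 for Rps15a to 2655 for Rpl32, and over the endogenous ones from 44.9 for Rps15a to 3493 for Rpl13. The median gene stood at 769, 799 and 785 TPM in the MSC-derived libraries and 655, 782 and 857 TPM in the endogenous ones, which overlap. Over all 6 libraries the highest were Rpl13, Rpl41 and Rps18, and the lowest Rps15a, Rpl22 and Rps20. Rpl13 had 2669, 2605 and 2561 TPM against 3269, 3576 and 3633 TPM. Rps15a had 46.7, 49.4 and 49.9 TPM against 44.7, 44.4 and 45.7 TPM. These low TPM values go with the long effective lengths that the reference gene set gives Rps15a, Rps20 and Rpl22, and the part of that annotation in the levels was not tested. The order of the genes was much the same throughout: the correlation of log2 TPM over the 76 genes was 0.98 to 1.00 between libraries of a group and 0.94 to 0.98 between libraries of different groups. The coefficient of variation over genes within a library was 73.4 to 77.9%.

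Paralogs replace a standard protein in some tissues or add a variant of it, and here they went separate ways. Rpl22l1, the partner of Rpl22, which is known to rise when Rpl22 is lost, had 92.9, 99.0 and 99.2 CPM against 186, 115 and 122 CPM. It was called lower on both scales (log2 fold change -0.54, standard error 0.18, adjusted p = 0.0323), with -0.93 on the TPM scale (adjusted p = 0.00621), the groups did not overlap, and endogenous library 1 was the highest of the 6. Rpl22 itself had 77.0, 79.3 and 80.5 CPM against 61.7, 78.4 and 71.3 CPM and was not called by edgeR (log2 fold change 0.16). In TPM, Rpl22l1 exceeded Rpl22 8.14, 8.29 and 8.21 times in the MSC-derived libraries and 19.3, 9.83 and 11.5 times in the endogenous ones. The edgeR call of Rpl22l1 was lost when any MSC-derived library was left out (adjusted p of 0.0882 to 0.108).

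Rps27l, a target of p53 in stress responses, had 87.3, 95.5 and 98.6 CPM against 37.5, 57.0 and 61.6 CPM. It rose on both scales (log2 fold change 0.85, standard error 0.18, adjusted p = 0.00479), with 0.44 on the TPM scale (adjusted p = 0.0308), and the groups did not overlap. Rps27, the standard gene, had 282, 329.5 and 327 CPM against 159, 228 and 251 CPM and was called higher by edgeR (log2 fold change 0.55, adjusted p = 0.0216) and not on the TPM scale (0.16). The TPM ratio of Rps27l to Rps27 was 0.152, 0.144 and 0.149 in the MSC-derived and 0.121, 0.124 and 0.122 in the endogenous libraries. The edgeR call of Rps27 was lost without MSC-derived library 2, MSC-derived library 3 or endogenous library 2 (adjusted p of 0.0659 to 0.0728).

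Rpl39l, best known from male germ cells, showed the largest fold change among the tested genes of the rule. It had 1.68, 1.52 and 1.22 CPM against 6.65, 4.46 and 5.65 CPM and was called lower by edgeR at -1.92 (standard error 0.33, adjusted p = 0.00166). The difference was -2.03 on the TPM scale (adjusted p = 0.00013), and all 3 MSC-derived libraries lay below all endogenous ones. Rpl39, which lines the exit tunnel of the ribosome, had 72.5, 81.3 and 83.5 CPM against 65.8, 62.7 and 64.3 CPM (log2 fold change 0.30, adjusted p = 0.0198). Rpl39l reached 0.00924, 0.00753 and 0.00590 of the TPM of Rpl39 in the MSC-derived libraries and 0.0417, 0.0286 and 0.0353 in the endogenous ones. Of 6 such ratios tested, these 3 and that of Rpl7l1 to Rpl7 did not overlap between the groups, and the exact two-sided permutation test over 3 against 3 libraries gave p = 0.1 for each, the smallest value it can give (0.15 after Benjamini-Hochberg adjustment over the 6). The ratios of Rpl32l to Rpl32 and of Rpl36al, a gene outside the rule, to Rpl36a overlapped (exact permutation p = 0.7 and 0.6). The edgeR call of Rpl39 was lost without MSC-derived library 2 or 3 or endogenous library 2 or 3 (adjusted p of 0.0511 to 0.0816).

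**Figure D5:**
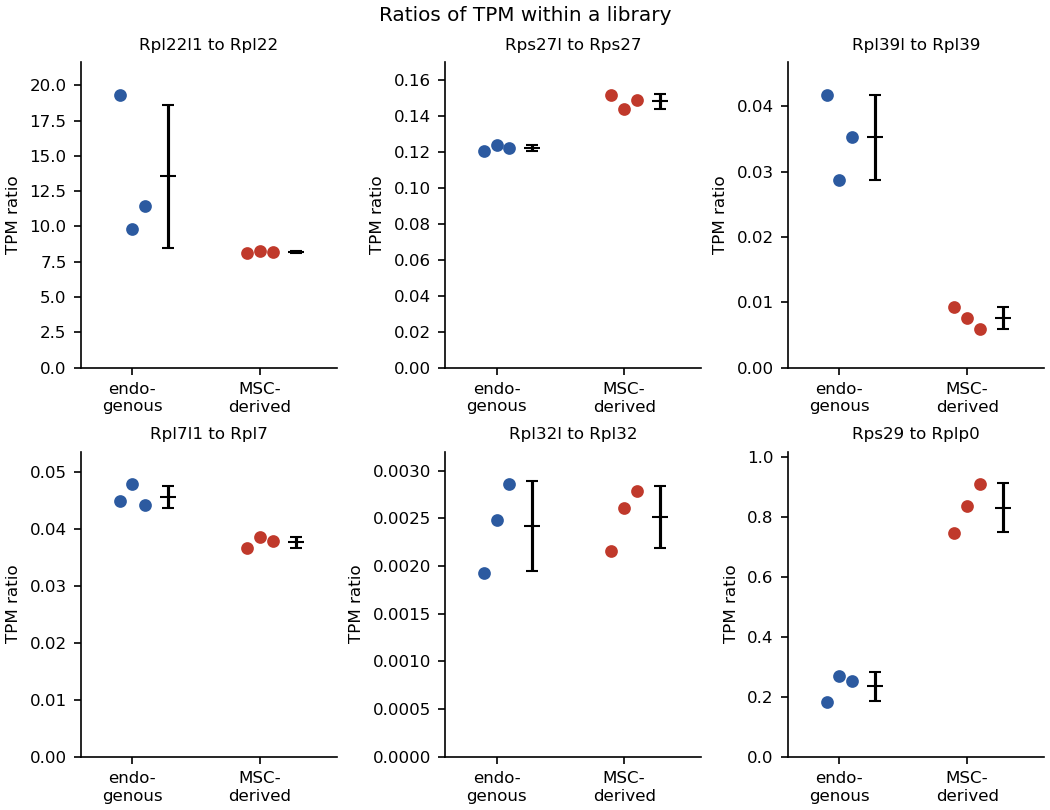
TPM ratio of the 5 tested paralogs of the rule to their standard genes, and of Rps29 to Rplp0, within each library (points), with mean and SD (n = 3) beside them. Rpl22l1, Rpl39l and Rpl7l1 take a smaller part against their partner in the MSC-derived libraries and Rps27l a larger one, the points of Rpl32l overlap between the groups, and Rps29 and Rplp0 are a pair chosen as the extremes.

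The remaining paralogs passed no edgeR test or were too low for one. Rpl7l1 had 56.2, 59.7 and 56.3 CPM against 62.9, 69.5 and 66.6 CPM and a log2 fold change of -0.21 that did not pass by edgeR (adjusted p = 0.065), whereas it was called lower at -0.63 on the TPM scale (adjusted p = 0.00036). Its TPM ratio to Rpl7 was 0.0366, 0.0386 and 0.0378 in the MSC-derived and 0.0449, 0.0479 and 0.0443 in the endogenous libraries. Rpl32l had 1.72, 2.21 and 2.40 CPM against 0.837, 1.41 and 1.67 CPM, past neither test, and its ratio to Rpl32 was 0.00216, 0.00260 and 0.00279 and 0.00192, 0.00248 and 0.00286. Rpl3l, a gene of skeletal and heart muscle, had 15, 12 and 6 counts in the MSC-derived libraries and 0, 6 and 0 in the endogenous ones, and Rpl6l had 2, 9 and 9 against 4 in each endogenous library, too few to test. Counting can divide reads between near copies. In the GENCODE M21 transcripts the best alignment of Rpl32 with Rpl32l was 96.0% identical over 404 bases, that of Rpl39 with Rpl39l 84.8% over 171, of Rps27 with Rps27l 76.4% over 254 and of Rpl22 with Rpl22l1 74.6% over 299, while Rpl7 and Rpl7l1 gave no alignment. Values of Rpl32l are uncertain for this reason. The same holds for Rps27rt, identical to Rps27 over 341 bases, and Rpl37rt, 99.7% identical to Rpl37 over 294 bases. Of 11 further rows named as ribosomal protein pseudogenes 7 were tested and 2, Rpl34-ps1 and Rps12-ps10 (named after their values were seen), were called higher at 0 to 1.72 CPM, which is uncertain in the same way. Rpl7l1 passed the edgeR test without endogenous library 1 (-0.30, adjusted p = 0.000394).

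The pyrimidine run that marks TOP mRNAs can be looked for around the transcription start. The window searched covered 15 bases on each side of the RefSeq start (GRCm38.p6), and a start was counted when the window held an unbroken run of at least 7 C or T letters on the coding strand. Promoter sequences were matched for 56 of the 76 standard genes with 66 starts, and 32 of these starts (48.5%) held such a run, beside 18.6% of all 32851 starts and 14.7% of the starts of mitochondrial ribosomal protein genes. Windows of genes on which the results above turn are printed here 5′ to 3′ with the longest run in capitals: Rps9, which rose on every scale, Rplp0, which fell, Rps6 and Rps18 from the middle, Fau from outside the rule, and the 3 pairs of standard gene and paralog. Where a gene has several starts the first is shown. The windows were Rps9 at chr7:3704026-3704055 (plus strand), Rplp0 at chr5:115559452-115559481 (plus strand), Rps6 at chr4:86857353-86857382 (minus strand), Rps18 at chr17:33955651-33955680 (minus strand), Fau at chr19:6057932-6057961 (plus strand), Rpl22 at chr4:152324421-152324450 (plus strand), Rpl22l1 at chr3:28805493-28805522 (plus strand), Rps27 at chr3:90213634-90213663 (minus strand), Rps27l at chr9:66946071-66946100 (plus strand), Rpl39 at chrX:37085208-37085237 (minus strand) and Rpl39l at chr16:10170213-10170242 (plus strand).
Rps9: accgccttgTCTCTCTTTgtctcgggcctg
Rplp0: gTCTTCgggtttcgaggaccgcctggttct
Rps6: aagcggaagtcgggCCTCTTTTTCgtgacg
Rps18: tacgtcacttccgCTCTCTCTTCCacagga
Fau: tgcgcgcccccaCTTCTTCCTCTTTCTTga
Rpl22: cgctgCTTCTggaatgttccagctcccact
Rpl22l1: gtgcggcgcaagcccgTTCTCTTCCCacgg
Rps27: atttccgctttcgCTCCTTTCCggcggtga
Rps27l: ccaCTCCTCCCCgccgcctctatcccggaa
Rpl39: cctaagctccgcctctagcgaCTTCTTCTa
Rpl39l: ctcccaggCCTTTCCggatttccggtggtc
Longest runs were 9 bases in Rps9, 5 in Rplp0, 10 in Rps6, 11 in Rps18 and 16 in Fau. Among the pairs, Rpl22 had 5 against 10 in Rpl22l1, Rps27 had 9 against 9 in Rps27l, and Rpl39 had 8 against 7 in Rpl39l. Median fold changes were close with and without the run. A run was counted anywhere in the window, whether or not it lay at the start of the mRNA. The split therefore does not separate TOP mRNAs from others. The 31 genes with a run in at least 1 window had a median edgeR log2 fold change of 0.34 with 19 called higher, and the 25 without one a median of 0.35 with 12 higher and 1 lower.

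Among the ribosomal genes outside the rule, Fau rose most. Fau encodes RPS30 fused to a ubiquitin-like protein and had 391, 414 and 393 CPM against 164, 209 and 206 CPM (log2 fold change 1.05, standard error 0.10, adjusted p = 8.67e-05). Its difference was 0.64 on the TPM scale (adjusted p = 0.000225), and the groups did not overlap. Rps27a, a member, encodes RPS27A fused to ubiquitin and had an edgeR log2 fold change of 0.50 (adjusted p = 0.00204), with 0.08 on the TPM scale, past no test there. Rpl36al rose by 0.75 (adjusted p = 0.000135) and by 0.33 on the TPM scale. Rack1, a signalling scaffold on the small subunit, and Rps3a1 were not called by edgeR (log2 fold changes 0.17 and -0.25) and were called lower on the TPM scale (-0.26 and -0.68).

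Mitochondrial ribosomal proteins build the separate ribosome of that organelle. Their share called higher was above that of all genes by edgeR and near it on the TPM scale. Their share called lower was below that of all genes on both scales. These differences were not tested. Of 78 genes, 48 were called higher and 1 lower by edgeR with a median of 0.56, and on the TPM scale 15 higher and 10 lower with a median of 0.17, beside 31.3% and 30.3% of all genes by edgeR and 21.9% and 41.7% on the TPM scale. The medians of all genes were 0.05 by edgeR and -0.28 on the TPM scale. Their fold changes spread more widely (standard deviation 0.49 against 0.26 for the 76 cytosolic genes). Mrpl35 rose most, with 79.4, 85.6 and 70.5 CPM against 20.3, 15.6 and 17.0 CPM (log2 fold change 2.15, standard error 0.14, adjusted p = 7.05e-06). Mrps6 was the gene that fell, with 13.8, 15.4 and 12.9 CPM against 55.3, 51.7 and 52.6 CPM (log2 fold change -1.92, standard error 0.11, adjusted p = 4.94e-06). Both kept their call and direction on the TPM scale (1.61 and -2.32). Without MSC-derived library 1 edgeR called 31 of the 78 higher, and without endogenous library 1 it called 3 lower. Over all genes the same fits called 3684 of 14725 higher and 5686 of 14728 lower.

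For the factors that work with the ribosome, the share called higher was below that of all genes on both scales, which was not tested. Over all genes 31.3% were higher and 30.3% lower by edgeR, and 21.9% and 41.7% on the TPM scale. Elongation factors and other TOP mRNAs counted 3 of 19 higher and 5 lower by edgeR, against 0 higher and 13 lower on the TPM scale, with medians of -0.04 and -0.46. Eef1a1, which delivers transfer RNA to the ribosome, had 1664, 1651 and 1634 CPM against 1806, 1949 and 1906 CPM (log2 fold change -0.19, adjusted p = 0.0173). Eef2, which moves the ribosome along the mRNA, had 1043, 1009 and 1042 CPM against 1249, 1462 and 1372 CPM (log2 fold change -0.40, adjusted p = 0.00202). Both fell on both scales, as did Rplp0, with TPM differences of -0.63 and -0.84. Within this list Eif3k was the largest increase by edgeR at 0.45, which was 0.02 in TPM, and Eif4a2 the largest decrease at -0.76. Initiation factors counted 6 of 35 higher and 12 lower by edgeR, against 1 higher and 24 lower on the TPM scale. Eif4g3, a scaffold that bridges the mRNA cap and the small subunit, was the largest increase at 1.00 (adjusted p = 0.000781), and Eif1ax, which helps scan for the start codon, the largest decrease at -0.99 (adjusted p = 0.00357). The elongation factor counts were 5 higher and 8 lower without endogenous library 1 and 3 lower without MSC-derived library 1 or 3, where Eef1a1 missed the threshold (adjusted p of 0.0623 and 0.0784), as it did without MSC-derived library 2 or endogenous library 3. Initiation factors called lower numbered 7 and 6 without MSC-derived library 1 and 3. Over all genes, 3770 of 14725 and 3768 of 14748 were lower without these libraries. Without endogenous library 1, 5563 of 14728 genes were higher and 5686 lower.

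For genes that build ribosomes, the shares called by edgeR were below those of all genes in both directions (31.3% higher and 30.3% lower over all genes), which was not tested, and the TPM counts stand beside 21.9% and 41.7% of all genes. Ribosome biogenesis factors counted 11 of 89 higher and 17 lower by edgeR, against 1 higher and 48 lower on the TPM scale, with medians of -0.07 and -0.46. Nop58, a core protein of the particles that methylate ribosomal RNA, had 29.9, 32.7 and 34.2 CPM against 150.4, 109.8 and 136 CPM (log2 fold change -2.03, standard error 0.13, adjusted p = 8.7e-06), with no overlap. Imp4, a factor of small subunit processing, was the largest increase at 1.13 (adjusted p = 0.000242). The abundant nucleolar proteins nucleolin (Ncl) and nucleophosmin (Npm1) were lower by edgeR at -0.49 and -0.42 (adjusted p = 0.0244 and 0.0122) and in TPM at -0.85 and -0.85, while fibrillarin (Fbl) was higher by edgeR at 0.24 (adjusted p = 0.0308) and -0.19 in TPM, past no test there. RNA polymerase I and its factors counted 4 of 21 higher and 3 lower by edgeR, against 1 higher and 7 lower on the TPM scale. Ubtf, which opens the ribosomal RNA genes, was lower at -0.46 (adjusted p = 0.00256), Taf1a was the largest decrease at -1.57 and Baz2a, a silencer of ribosomal RNA genes, the largest increase at 1.04. Chaperones that escort single ribosomal proteins counted 2 of 10 higher and 2 lower by edgeR, against 1 higher and 4 lower on the TPM scale. Tsr2, which escorts RPS26, was lower at -1.36 (adjusted p = 0.000286) and Pdcd2l higher at 1.99 (adjusted p = 5.81e-06), and Rps26 itself was not called by edgeR. These calls moved with the libraries used: without endogenous library 1 there were 22 biogenesis factors higher and 28 lower and 7 polymerase I genes higher and 5 lower, and without any other library 6 or 7 biogenesis factors were higher. Without MSC-derived library 1 or 2, 11 biogenesis factors were lower and 1 or 2 polymerase I genes higher. Over all genes, 5563 of 14728 were higher and 5686 lower without endogenous library 1. Without any other library, 3672 to 4175 genes were higher. Without MSC-derived library 1 or 2, 3770 and 3761 genes were lower. The edgeR calls of Ncl, Npm1 and Fbl were each lost when MSC-derived library 1 or 3 was left out (adjusted p of 0.0502 to 0.0881), and those of Ncl and Fbl also without MSC-derived library 2, and of Fbl without endogenous library 2 or 3.

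Upstream regulators held single large changes in both directions, while their counts as lists stand beside 31.3% higher and 30.3% lower among all genes by edgeR and 21.9% and 41.7% on the TPM scale. Myc had 64.4, 58.4 and 60.4 CPM against 321, 329.8 and 288 CPM (log2 fold change -2.36, standard error 0.09, adjusted p = 4.4e-07), far below the endogenous level in all 3 MSC-derived libraries, and Mxd1, which competes with MYC for its partner MAX, had 413, 418 and 423 CPM against 96.8, 81.4 and 85.0 CPM (log2 fold change 2.25, standard error 0.08, adjusted p = 5.16e-07). Both kept their direction in TPM (-2.76 and 1.78), and the MYC family and partners counted 6 of 12 higher and 4 lower by edgeR, against 4 higher and 4 lower on the TPM scale. The mTOR and TOP mRNA regulators counted 6 of 25 higher and 10 lower by edgeR, against 3 higher and 12 lower on the TPM scale. Mtor and Larp1 passed no edgeR test (log2 fold changes 0.31 and -0.04, adjusted p = 0.25 and 0.832), Eif4ebp1, the mTOR-controlled repressor of cap-dependent initiation, was higher by edgeR at 0.57 (adjusted p = 0.0482) and 0.18 in TPM, and the largest changes were Eef2k at 1.42, the kinase that inhibits EEF2, and Castor1 at -1.77, an arginine sensor upstream of mTOR. The MDM2 and p53 axis counted 4 of 14 higher and 4 lower by edgeR, against 2 higher and 6 lower on the TPM scale. Mdm2 was lower at -0.33 (adjusted p = 0.0139), Trp53 was not called by edgeR at 0.06, and Cdkn1a, the p21 cell cycle inhibitor and a p53 target, had 169, 160.0 and 156 CPM against 586, 693 and 719 CPM (log2 fold change -2.04, standard error 0.09, adjusted p = 1.41e-06). Bax, another p53 target, was the largest increase of this list at 1.26 (adjusted p = 0.000293). The edgeR call of Eif4ebp1 was lost without any MSC-derived library or endogenous library 2 (adjusted p of 0.0701 to 0.125), and that of Mdm2 without MSC-derived library 1 or 3 or endogenous library 3 (adjusted p of 0.0534 to 0.0717). Without MSC-derived library 3 edgeR called 2 of the MYC family lower, and over all genes 3768 of 14748.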

How the data were processed

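Expected counts, TPM and FPKM of 17854 genes in 6 libraries were used. The authors obtained the expected counts, which are not normalized, from RSEM after SOAPnuke filtering and alignment (HISAT2, Bowtie2). The submitters' processing notes name Bowtie2 2.2.5, RSEM 1.2.12 and mm9. The authors deposited FPKM and TPM beside the counts, and a signal that is the count times 1 factor per library, used only as a check. Of the deposited columns 24 were mapped to samples and 8 group averages were left out. Strandedness of counting is not given in the sources used here.

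Expected counts were rounded (20.6% of values changed) and compared by the quasi-likelihood test of edgeR 4.0.16 (R 4.3.3; filterByExpr, TMM, glmQLFit, glmQLFTest), Benjamini-Hochberg adjusted over 14289 genes, threshold 0.05. The same genes were tested with limma 3.58.1 on log2(TPM + 1), where a fold change understates that of low genes. Scaled CPM are counts per 1000000 of the TMM-scaled library. Effective length is the count divided by FPKM and library total. Ratios used exact permutation tests (scipy 1.17.1). Transcripts were aligned with blastn 2.17.0, and figures drawn with matplotlib 3.10.9. Scripts were tested on simulated data.

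The members and gene lists were chosen with earlier results of these data known. Named genes were a fixed set of members, all paralogs, the 6 largest and 6 smallest fold changes at a mean log2 CPM of at least 5, the 3 highest and 3 lowest in TPM, and the largest changes of each related list. Alternatives were DESeq2 1.42.0, other scalings, filters and units, a replicate block, each library left out, and a threshold of 0.001. TPM rescaled without 50 abundant genes was added after seeing the data. Same-numbered samples are different mice. Values of some genes are not reported here.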

Additional observations from a re-analysis of the deposited data

How the results depend on the processing

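Of the 76 standard genes 44 were called higher and 1 lower, beside 31.3% and 30.3% of all 14289 genes tested. The number called higher was 23 with upper-quartile factors, 8 with limma on log2(TPM + 1), 15 on TPM rescaled without 50 abundant genes (chosen after seeing the data), 6 at an adjusted p of 0.001 or less, and 26 to 52 when a library was left out. Of all 14289 genes, 4027 were higher with upper-quartile factors, 3124 in TPM and 3620 in rescaled TPM. With a library left out, 3672 to 5563 of 14490 to 14748 genes were higher. The number of all genes at the stricter threshold is not given here. The number called lower was 23 in TPM, 11 in rescaled TPM, 0 at the stricter threshold, and 1 to 6 when a library was left out, 6 only without endogenous library 1. Of all genes, 5962 were lower in TPM, 5349 in rescaled TPM and 3761 to 5686 with a library left out, 5686 without endogenous library 1. The median log2 fold change of 0.38 became -0.030 in TPM and 0.11 in rescaled TPM, and 0.21 to 0.43 with a library left out. The share of counts on ribosomal protein genes was 0.74 percentage points higher in the MSC-derived libraries (0.56 without the 50 other genes with the most counts), and the share of summed TPM differed by -0.309. Single named genes turned sign in TPM: Fbl -0.19, Rack1 -0.26, Rpl10 -0.38, Rpl11 -0.0050, Rpl13 -0.42, Rpl13a -0.13, Rpl14 -0.42, Rpl22 -0.27, Rpl39 -0.12, Rpl5 -0.23, Rpl7 -0.37, Rps4x -0.42, Rps6 -0.30 and Trp53 -0.37. So did Mtor -0.17, Rpl38 -0.052, Rpl41 -0.32 and Rpsa -0.25. In rescaled TPM the log2 fold change of Fbl was -0.051, and the sign also turned for Rpl10 -0.24, Rpl13 -0.28, Rpl14 -0.28, Rpl7 -0.23, Rps4x -0.28, Rps6 -0.16 and Trp53 -0.23, and for Mtor -0.075, Rack1 -0.12, Rpl22 -0.14, Rpl41 -0.18, Rpl5 -0.090 and Rpsa -0.11. Without endogenous library 1 it turned for Rpl13 and Rpl41, which ranged from -0.14 to 0.067 and from -0.14 to 0.16 over the left-out libraries. It turned there too for Larp1 0.070, Rpl10 -0.0018, Rpl14 -0.075, Rpl7 -0.012, Rps4x -0.068, Rpsa -0.053 and Trp53 -0.023. Leaving out another library turned the sign of Larp1, Rpl14, Rps2 or Rps4x, to values between -0.054 and 0.091. Under other factors, DESeq2, FPKM or the block no called gene changed direction, but uncalled named genes near 0 changed sign: Rpl10, Rpl13, Rpl14, Rpl41, Rpl7, Rps4x and Trp53 to values between -0.084 and -0.0081, and Larp1, Rpl3, Rpl4 and Rps2 to values between 0.0025 and 0.13. With the replicate number as a block (replicate block), 41 were higher and 1 lower, with a median of 0.38, and 5 of the other named genes missed the threshold. Over all genes the block gave 4103 of 14289 higher and 3920 lower. Deviations of same-numbered samples correlated at 0.0022 to 0.018 over all genes and at 0.39, -0.24 and 0.37 over the members, and the samples are different mice, so the numbers do not pair the samples. The cause of these changes was not tested.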
